A study of Mus musculus with 8 samples.

Results

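Glycolysis and hypoxia response genes were followed in regulatory T cells (Tregs) from mice. The group was chosen by symbol: 39 genes for glucose and lactate transport, the enzymes of glycolysis and their regulators, the fate of pyruvate, the hypoxia-inducible factor HIF-1 with its oxygen sensors, and genes known to respond to low oxygen. The 39 symbols stand on 40 of the 19330 gene rows of the count table, since Aldoa has 2 rows. No row was lost to the filter on low counts, so 40 rows were tested among 16434. Naive CD4+ T cells of B6 mouse spleen had been turned into Tregs in vitro. The cultures lasted 3 days with oxPAPC, a mixture of oxidized phospholipids of the kind that forms in atherosclerotic plaque, or without it as Control. There were 4 oxPAPC libraries and 4 Control libraries, of poly(A)-selected RNA. The labels tie no library to a mouse or a culture, so p-values measure the spread between these libraries, which may be technical.

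Glycolysis takes glucose in through transporters of the Slc2a family, splits it into pyruvate in a chain of cytosolic enzymes, and yields ATP and building blocks. Pyruvate is then either reduced to lactate by lactate dehydrogenase and exported by Slc16a transporters, or oxidized in mitochondria through pyruvate dehydrogenase, which the Pdk kinases inhibit. HIF-1 is a transcription factor made of a labile alpha subunit (Hif1a) and a stable partner (Arnt). In the presence of oxygen, prolyl hydroxylases of the Egln family mark the alpha subunit for destruction by the Vhl ubiquitin ligase. In T cells HIF-1 is also known to act at normal oxygen after antigen receptor and mTOR signalling. Effector T cells are known for high glycolysis, whereas Tregs are known to rely more on mitochondrial oxidation.

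Genes of glycolysis and of the hypoxia response moved in both directions with oxPAPC, and related isoenzymes often changed by different amounts. With edgeR's quasi-likelihood test and p-values adjusted after Benjamini and Hochberg, 11 of the 40 rows were higher in oxPAPC libraries (27.5%), 6 were lower (15%), and 23 did not pass an adjusted p of 0.05. Over all genes tested, 6.69% were called higher and 6.5% lower, 13.2% in all. The genes that rose were Slc2a1, Hk2, Pfkl, Tpi1, Pgam1, Eno1, Ldha, Hif1a, Egln3, Bnip3 and Ero1l. The genes that fell were Aldoc, Eno2, Ldhb, Pdk2, Vegfa and Ndrg1. Of related isoenzymes, only Eno1 with Eno2 and Ldha with Ldhb were called in opposite directions. The values of the oxPAPC and the Control libraries did not overlap in 19 rows, with oxPAPC above in 11 and below in 8, where all genes gave 9.5% above and 9.86% below. The median log2 fold change was 0.16 for the 40 rows and -0.01 for all genes tested. The size of change reached 2-fold in 4 rows upward, Slc2a1, Hk2, Pfkl and Tpi1, and in 4 downward, Aldoc, Eno2, Pdk2 and Ndrg1.

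**Figure D1:**
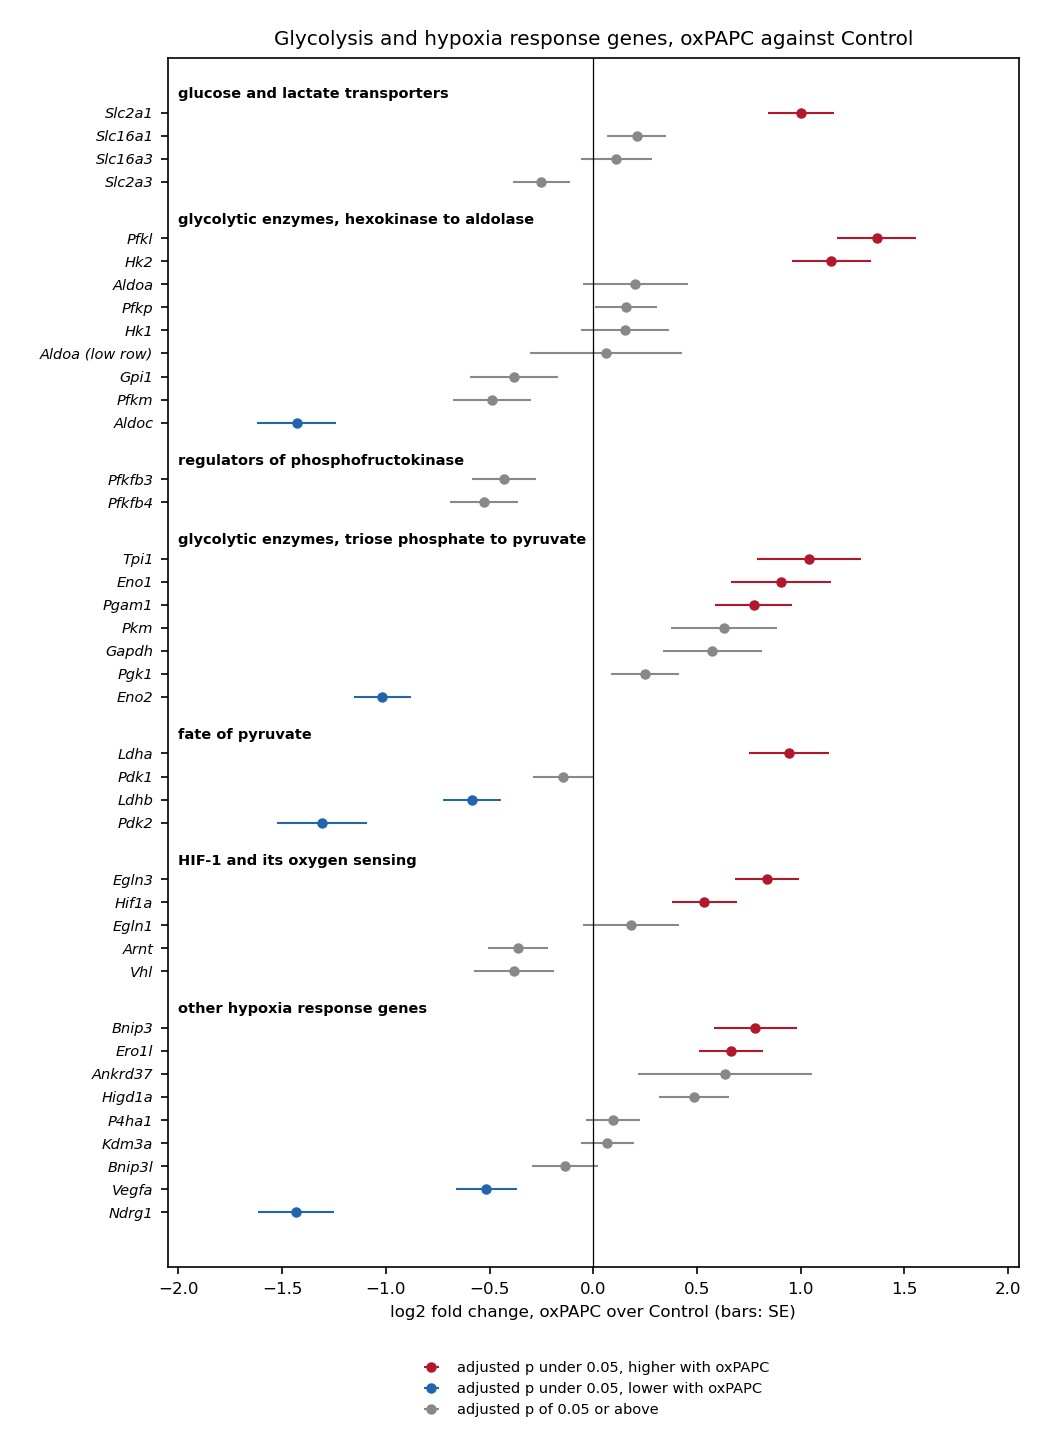
Log2 fold change of oxPAPC over Control (x axis) for the 40 rows of the 39 genes, grouped by role, with bars for the SE of the fit to 4 libraries per group. Points in red are the 11 genes that were higher and in blue the 6 that were lower at an adjusted p under 0.05, from 1.37 for Pfkl down to -1.44 for Ndrg1, and grey points did not pass.

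The libraries held between 14017583 and 21619731 counts. A single gene, Gm26917, took 9.35% to 19.4% of the counts in oxPAPC libraries and 8.59% to 29.1% in Control libraries. The TMM scaling factors ran from 0.808 to 1.133. The part of this gene in the results below was not tested. The oxPAPC replicate 3 library was the highest of the 4 oxPAPC libraries in 27 of the 40 rows, glycolytic and hypoxia genes together. Other libraries were uneven too. In 22 rows oxPAPC replicate 2 was the lowest of its group, and in 22 rows Control replicate 3 was. Control replicate 4 was the highest of its group in 19 rows. The 18 rows for enzymes from hexokinase to lactate dehydrogenase summed to 4688, 4086, 7962 and 5708 CPM (counts scaled to a common library size) in oxPAPC replicates 1 to 4, against 3651, 4094, 3386 and 4622 CPM in Control replicates 1 to 4. These sums overlap, because oxPAPC replicate 2 lies below Control replicates 2 and 4. Without oxPAPC replicate 3, edgeR called 11 rows higher and 9 lower. Hif1a was lost, and Higd1a, Gpi1, Pfkm and Pfkfb3 were added. The defining T cell and Treg markers were expressed, with Foxp3 at 145 ± 52.1 CPM in oxPAPC libraries and 154 ± 34.1 CPM in Control libraries (SD, n = 4 each), and none of 10 such markers passed the test. Markers of other cells were low, and some of them were higher with oxPAPC. The 6 B cell markers summed to 18.6 to 22.9 CPM in oxPAPC libraries and 10.9 to 16.4 CPM in Control libraries. Of these, 4 were called higher, Cd79a had a log2 fold change of 0.07, and Cd79b lay lower in every oxPAPC library without passing the test (-0.58, edgeR adjusted p = 0.0978). The 2 CD8 T cell markers summed to 10.9 to 18.7 CPM with oxPAPC and 6.72 to 8.90 CPM in Control, with Cd8a higher and Cd8b1 at a log2 fold change of 0.09. Macrophage and monocyte markers summed to 9.09 to 11.3 CPM and 3.77 to 4.80 CPM in oxPAPC and Control libraries, with Mpeg1 alone of 4 tested called higher. Dendritic cell markers summed to 12.5 to 15.3 CPM and 6.19 to 10.8 CPM in the same order, with 1 of 3 higher, and NK cell markers to 2.84 to 4.17 CPM and 0.598 to 1.81 CPM, with Klrk1 of 2 higher and Tyrobp at a log2 fold change of 0.17. Red cell markers summed to 12.2 to 27.6 CPM in oxPAPC libraries and 10.9 to 18.0 CPM in Control libraries, which overlap, with none of 2 called, and none of 5 neutrophil markers is in the table. The part of these cells in the results below was not tested. In bulk RNA, fewer cells of a type and less RNA per cell cannot be told apart.

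**Figure D2:**
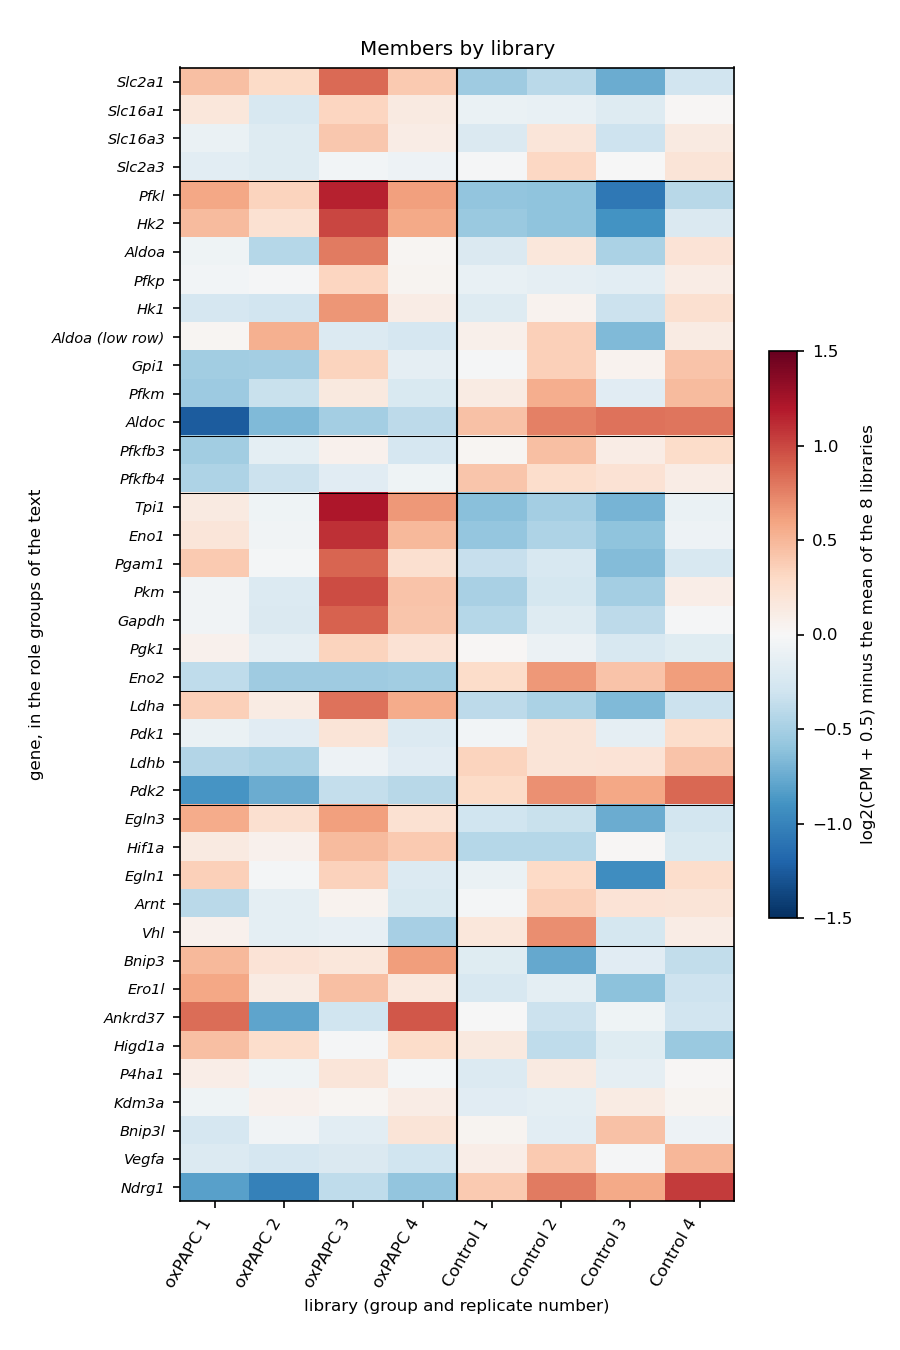
Each cell gives log2(CPM + 0.5) of a gene row in a library minus that row's mean over the 8 libraries (colour bar), with the oxPAPC libraries left of the Control libraries and the rows in the role groups of the text. The column of oxPAPC replicate 3 is the deepest red of the oxPAPC columns through most glycolytic enzymes, being the highest of its group in 27 of 40 rows.

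Of the 4 transporters, Slc2a1 rose and the others did not pass. Slc2a1 encodes Glut1, the main glucose carrier of activated T cells. At chr4:119108711-119137983 (GRCm38, as are all gene positions here), it had 69.2, 61.8, 91.4 and 66.5 CPM in oxPAPC replicates 1 to 4 and 34.7, 38.2, 30.1 and 41.4 CPM in Control replicates 1 to 4. The lowest oxPAPC library lay above the highest Control library. The means were 72.2 ± 13.2 CPM with oxPAPC and 36.1 ± 4.82 CPM in Control (SD, n = 4 each), and the log2 fold change was 1.00 with an SE of 0.16 (edgeR adjusted p = 0.00105); later values after ± beside a log2 fold change are SEs too. Slc2a3, which encodes the high-affinity carrier Glut3, had 14.3, 13.9, 15.5 and 15.1 CPM in oxPAPC libraries and 15.8, 20, 15.9 and 18.4 CPM in Control libraries. Its oxPAPC values all lay below its Control values, by a small margin, and the log2 fold change of -0.25 ± 0.14 did not pass (edgeR adjusted p = 0.268). Per kilobase of annotated exons, Slc2a1 was the more abundant of the pair, at 20.6 FPKM with oxPAPC and 10.3 FPKM in Control. Slc2a3 had 2.03 and 2.42 FPKM. FPKM here is CPM per kilobase of annotated exons, joined over all annotated transcripts of a gene. This length can exceed that of the transcript expressed, so FPKM compares different genes only roughly. The lactate and pyruvate carriers had overlapping values. Slc16a1 (Mct1) averaged 52.0 CPM with oxPAPC and 44.9 CPM in Control, and Slc16a3 (Mct4), the carrier suited to export of lactate, 99.0 and 91.8 CPM, with edgeR adjusted p of 0.378 and 0.733.

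Among the 9 rows for the enzymes from hexokinase to aldolase, Hk2 and Pfkl rose, Aldoc fell and 6 rows did not pass. Hexokinases trap glucose in the cell by phosphorylation, and Hk2 is the inducible form. Hk2 (chr6:82725025-82774454) had 106.5, 89.7, 154 and 113.5 CPM in oxPAPC libraries and 51.9, 50.3, 41.0 and 66.1 CPM in Control libraries, with no overlap. Its log2 fold change was 1.15 ± 0.19 (edgeR adjusted p = 0.00143). Hk1, the housekeeping form, had 118, 114.5, 221.5 and 152 CPM with oxPAPC and 122, 145, 112 and 165 CPM in Control. Only oxPAPC replicate 3 exceeded the highest Control library, and the log2 fold change was 0.15 ± 0.21 (edgeR adjusted p = 0.695).

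To show the sequence next to these values, the 250 bases upstream of the start were read from the RefSeq promoter table (GRCm38.p6) for 3 pairs of isoforms. The members of each pair changed by different amounts, and their windows hold no annotated exon. The pairs are Hk2 with Hk1 here, and Ldha with Ldhb and Pdk2 with Pdk1 further on. Of these, only Ldha and Ldhb had estimates of opposite sign. Capitals mark ACGTG or GCGTG on either strand (CACGT or CACGC when read on the strand shown), the core of the HIF binding motif. The Hk2 window is chr6:82774455-82774704 (minus strand) and the Hk1 window is chr10:62379909-62380158 (minus strand).
Hk2: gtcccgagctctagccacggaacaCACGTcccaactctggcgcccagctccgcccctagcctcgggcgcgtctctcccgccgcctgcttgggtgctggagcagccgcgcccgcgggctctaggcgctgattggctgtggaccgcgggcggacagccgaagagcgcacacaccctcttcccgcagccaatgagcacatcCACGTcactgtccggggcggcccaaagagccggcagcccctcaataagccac
Hk1: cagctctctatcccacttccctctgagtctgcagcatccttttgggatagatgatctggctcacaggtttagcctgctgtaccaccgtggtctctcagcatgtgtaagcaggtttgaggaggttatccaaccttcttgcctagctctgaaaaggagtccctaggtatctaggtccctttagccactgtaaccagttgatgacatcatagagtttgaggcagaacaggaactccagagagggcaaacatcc
The Hk2 window holds 2 such cores and the Hk1 window 0. A match is a run of letters and not a measured binding site.

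Pfkl encodes the liver-type subunit of phosphofructokinase, the committed step of glycolysis. Pfkl (chr10:77986947-78010083) showed the highest log2 fold change of the group, 1.37 ± 0.19 (edgeR adjusted p = 0.00048), from 73.1, 61.9, 109 and 75.0 CPM in oxPAPC libraries and 32.4, 31.9, 23.0 and 36.6 CPM in Control libraries. The lowest oxPAPC value was above the highest Control value. The platelet-type subunit Pfkp averaged 199 ± 24.8 CPM with oxPAPC and 179 ± 16.2 CPM in Control, and the muscle-type subunit Pfkm 22.7 ± 4.88 and 32.01 ± 7.22 CPM (SD, n = 4 each), neither past the test (edgeR adjusted p = 0.554 and 0.106). Pfkm passed at a log2 fold change of -0.64 without oxPAPC replicate 3 (edgeR adjusted p = 0.0327). Per kilobase of annotated exons, Pfkl made up 35.2 ± 2.85% of the phosphofructokinase sum with oxPAPC and 16.8 ± 1.42% in Control. Pfkm made up 20.2 ± 1.49% and 34.5 ± 4.05%, and Pfkp 44.6 ± 2.53% and 48.8 ± 4.46% (SD of 4 libraries). These shares depend on the annotated exon lengths and are not transcript proportions. By CPM, Pfkp stood far above Pfkm in both groups. Gpi1, which converts glucose 6-phosphate to fructose 6-phosphate, averaged 276 ± 82.0 CPM with oxPAPC and 359.5 ± 55.1 CPM in Control (edgeR adjusted p = 0.264). Without oxPAPC replicate 3 its log2 fold change was -0.60 and passed (edgeR adjusted p = 0.0375).

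The aldolases split the 6-carbon sugar. Aldoc, the form best known from brain, at chr11:78322968-78327781, fell to 5, 7.74, 8.61 and 9.38 CPM in oxPAPC libraries, against 17.2, 21.4, 22.4 and 22.2 CPM in Control libraries. The groups were far apart, with a log2 fold change of -1.43 ± 0.19 (edgeR adjusted p = 0.000328). Aldoa, the main form of T cells, had 584, 452, 1043 and 620.5 CPM with oxPAPC and 522.5, 682, 438 and 702.5 CPM in Control. These values overlap, with oxPAPC replicate 3 far above the rest (log2 fold change 0.20 ± 0.25, edgeR adjusted p = 0.662), and without that library the estimate was -0.09. The other Aldoa row, which lies next to it on the genome, had 1.38 ± 0.51 CPM with oxPAPC and 1.33 ± 0.494 CPM in Control (SD, n = 4 each).

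Pfkfb3 and Pfkfb4 encode the enzymes that make and remove fructose 2,6-bisphosphate, the allosteric activator of phosphofructokinase. Pfkfb3 had 42.9, 55.5, 64.2 and 51.5 CPM in oxPAPC libraries and 62.9, 84.2, 66.8 and 74.9 CPM in Control libraries, which overlap in oxPAPC replicate 3 alone. Its log2 fold change was -0.43 ± 0.15 (edgeR adjusted p = 0.0826). Pfkfb4 had 6.42, 7.14, 7.94 and 8.62 CPM with oxPAPC and 12.2, 10.9, 10.6 and 9.80 CPM in Control. Its oxPAPC values all lay below its Control values, and the log2 fold change of -0.53 ± 0.17 missed the threshold by a small margin (edgeR adjusted p = 0.0502). DESeq2, voom with quality weights and a filter at a mean of 5 CPM called Pfkfb4 lower (adjusted p = 0.0482, 0.0338 and 0.0358).

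From triose phosphate to pyruvate, Tpi1, Pgam1 and Eno1 rose, Eno2 fell, and Gapdh, Pgk1 and Pkm did not pass. Tpi1 interconverts the triose phosphates. Tpi1 (chr6:124810586-124814296) had 165, 143, 348 and 235 CPM in oxPAPC libraries and 97.03, 105, 91.8 and 140.2 CPM in Control libraries, with a narrow gap between oxPAPC replicate 2 and Control replicate 4. The log2 fold change was 1.04 ± 0.25 (edgeR adjusted p = 0.0143), and 0.74 without oxPAPC replicate 3 (0.0212). Pgam1, the phosphoglycerate mutase, at chr19:41911923-41918660, had 79.5, 59.2, 110.5 and 71.2 CPM with oxPAPC and 47.4, 51.0, 38.3 and 50.9 CPM in Control, again with no overlap. Its log2 fold change was 0.77 ± 0.18 (edgeR adjusted p = 0.0135). The glyceraldehyde 3-phosphate dehydrogenase gene Gapdh, often used as a reference transcript, had 699, 622, 1337 and 965 CPM with oxPAPC and 537, 633, 549 and 716 CPM in Control. The groups overlap through oxPAPC replicates 1 and 2 (log2 fold change 0.57 ± 0.24, edgeR adjusted p = 0.134). The last enzyme, pyruvate kinase Pkm, had 556, 496.5, 1135 and 771 CPM with oxPAPC and 411, 479, 404 and 617 CPM in Control, also with overlap (0.63 ± 0.26, edgeR adjusted p = 0.124). Without oxPAPC replicate 3 the estimates were 0.32 for Gapdh and 0.35 for Pkm. Part of the Pkm exons, 15.3%, overlaps the gene Gm49759 on the same strand. Pgk1, which makes ATP from 1,3-bisphosphoglycerate, averaged 416.5 ± 57.2 CPM with oxPAPC and 351 ± 27.0 CPM in Control (SD, n = 4 each; edgeR adjusted p = 0.364).

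The enolases, which form phosphoenolpyruvate, went in opposite directions. Eno1, the ubiquitous form, at chr4:150236721-150248879, had 632, 537, 1190.0 and 781.5 CPM in oxPAPC libraries and 373.5, 405, 368 and 531 CPM in Control libraries. The lowest oxPAPC value was just above the highest Control value, and the log2 fold change was 0.91 ± 0.24 (edgeR adjusted p = 0.0246). This call was lost without oxPAPC replicate 4 (0.91, adjusted p = 0.0512), Control replicate 1 (0.86, 0.0750), Control replicate 2 (0.89, 0.0693) or Control replicate 3 (0.85, 0.0547). Without oxPAPC replicate 3 it stayed past the threshold at 0.63 (edgeR adjusted p = 0.0388). Eno1b, a near-identical copy whose reads counting may split with Eno1, averaged 0.846 CPM in oxPAPC libraries and 0.589 CPM in Control libraries. Eno2, the form named for neurons, at chr6:124760053-124769673, fell to 16.1, 14.4, 14.5 and 14.5 CPM in oxPAPC libraries, against 25.5, 33.4, 28.5 and 32.8 CPM in Control libraries. The groups lay far apart and the oxPAPC values close together, with a log2 fold change of -1.02 ± 0.14 (edgeR adjusted p = 0.000365).

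At the branch point of pyruvate, Ldha rose while Ldhb and Pdk2 fell, and Pdk1 did not pass. Ldha encodes the lactate dehydrogenase subunit known to favour making lactate from pyruvate. Ldha (chr7:46841475-46855627) had 819, 695.5, 1130.0 and 939.6 CPM in oxPAPC libraries and 486, 461, 404 and 512 CPM in Control libraries, with a wide gap. Its log2 fold change was 0.94 ± 0.19 (edgeR adjusted p = 0.00553). Ldhb, the subunit known to favour the reverse reaction, at chr6:142490249-142507957, fell to 19.1, 18.8, 24.8 and 23.2 CPM with oxPAPC, against 33.2, 30.0, 30.3 and 35.4 CPM in Control. The values of the groups did not overlap, and the log2 fold change was -0.59 ± 0.14 (edgeR adjusted p = 0.0133). This call was lost without oxPAPC replicate 1 (-0.53, adjusted p = 0.0519) and when libraries were scaled by their totals alone (-0.45, adjusted p = 0.170). Per kilobase of annotated exons, Ldha stood highest of the 40 rows in oxPAPC libraries, at 271 ± 55.9 FPKM, ahead of Aldoa at 232 ± 87.8 and Gapdh at 219 ± 78.1 FPKM, which did not differ from it beyond their SDs. In Control libraries Aldoa came highest at 201 ± 43.8 FPKM, then Pgk1 at 156 ± 12.04, Gapdh at 147 ± 20.1 and Ldha at 141 ± 13.9 FPKM (SD, n = 4 each). This order depends on the exon lengths used. By CPM, Gapdh stood highest in both groups, at 906 ± 323 with oxPAPC and 609 ± 83.2 in Control. Ldha came next with oxPAPC, at 896 ± 185 CPM (SD, n = 4 each).

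The Ldha and Ldhb windows are chr7:46845554-46845803 (plus strand) and chr6:142507958-142508207 (minus strand).
Ldha: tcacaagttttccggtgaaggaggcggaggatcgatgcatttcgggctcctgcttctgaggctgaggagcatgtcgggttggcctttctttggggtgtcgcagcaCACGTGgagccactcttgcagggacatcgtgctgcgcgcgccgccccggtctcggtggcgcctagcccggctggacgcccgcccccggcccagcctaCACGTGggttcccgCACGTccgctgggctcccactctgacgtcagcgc
Ldhb: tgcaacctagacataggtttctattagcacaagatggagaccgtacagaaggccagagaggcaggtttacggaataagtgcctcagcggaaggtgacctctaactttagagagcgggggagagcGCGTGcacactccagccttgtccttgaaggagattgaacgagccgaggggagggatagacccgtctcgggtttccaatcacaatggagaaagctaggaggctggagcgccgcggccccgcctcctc
The Ldha window holds 5 matches to ACGTG when both strands are counted, which include 2 copies of CACGTG, a palindrome that is also the E-box core bound by Myc and related factors. The Ldhb window holds 1 GCGTG.

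Pyruvate dehydrogenase kinases inhibit the entry of pyruvate into mitochondria. Pdk2 (chr11:95026258-95041354) fell to 2.54, 2.84, 3.88 and 3.70 CPM in oxPAPC libraries, against 6.32, 8.53, 7.86 and 9.66 CPM in Control libraries. The highest oxPAPC value was below the lowest Control value, and the log2 fold change was -1.31 ± 0.22 (edgeR adjusted p = 0.0015). Pdk1, a textbook HIF-1 target, had 46.4, 43.9, 56.5 and 42.7 CPM with oxPAPC and 48.3, 56.7, 45.0 and 59.5 CPM in Control. These values overlap (log2 fold change -0.14 ± 0.14, edgeR adjusted p = 0.575). The Pdk2 window is chr11:95041372-95041621 (minus strand) and the Pdk1 window chr2:71872974-71873223 (plus strand).
Pdk2: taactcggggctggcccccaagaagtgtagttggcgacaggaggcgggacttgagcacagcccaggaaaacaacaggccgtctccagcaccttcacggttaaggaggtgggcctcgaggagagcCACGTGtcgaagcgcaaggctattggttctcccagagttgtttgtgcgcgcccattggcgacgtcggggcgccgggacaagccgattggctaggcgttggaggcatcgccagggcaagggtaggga
Pdk1: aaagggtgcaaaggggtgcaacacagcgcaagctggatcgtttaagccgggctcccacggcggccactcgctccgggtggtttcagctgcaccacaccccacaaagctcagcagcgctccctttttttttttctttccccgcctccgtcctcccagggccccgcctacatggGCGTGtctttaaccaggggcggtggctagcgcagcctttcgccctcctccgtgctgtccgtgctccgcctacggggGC
The window of Pdk2, which fell, holds 2 matches to ACGTG that form 1 CACGTG, and that of Pdk1 holds 1 core, while the capitals at its very end begin another that runs past the bases shown.

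The HIF-1 subunit Hif1a and the oxygen sensor Egln3 rose, while Arnt, Egln1 and Vhl did not pass. Hif1a (chr12:73901375-73947530) had 109.8, 105, 140.0 and 132 CPM in oxPAPC libraries and 74.6, 74.4, 101.5 and 85.4 CPM in Control libraries. A narrow gap separated oxPAPC replicate 2 from Control replicate 3, and the log2 fold change was 0.54 ± 0.16 (edgeR adjusted p = 0.0370). The call was lost when any of 6 libraries was left out: oxPAPC replicates 1 (adjusted p = 0.0535), 3 (0.0640) and 4 (0.104) and Control replicates 1 (0.109), 2 (0.115) and 4 (0.0769), with log2 fold changes between 0.46 and 0.58. Hif1a shares 330 exonic bases with the antisense gene Gm15283, and the strand setting of the counting was not given in the sources used here. Egln3, a prolyl hydroxylase that is itself a known HIF target, at chr12:54178981-54203860, had 35.1, 28.1, 36.5 and 27.8 CPM with oxPAPC and 19.2, 18.6, 13.98 and 19.6 CPM in Control. Its groups did not overlap, and the log2 fold change was 0.84 ± 0.15 (edgeR adjusted p = 0.00312). Egln1, the main oxygen sensor, averaged 72.0 ± 13.7 CPM with oxPAPC and 63.5 ± 21.5 CPM in Control (edgeR adjusted p = 0.670). The partner subunit Arnt averaged 49.99 ± 6.69 and 64.3 ± 7.03 CPM (0.112), and Vhl, the substrate receptor of the ubiquitin ligase, 23.6 ± 3.74 and 30.8 ± 8.83 CPM (0.219), with oxPAPC and in Control (SD, n = 4 each).

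Of 9 other hypoxia response genes, Bnip3 and Ero1l rose, Vegfa and Ndrg1 fell and 5 did not pass. Ndrg1, a stress-responsive gene induced by hypoxia in many cells, at chr15:66929318-66969640, showed the lowest log2 fold change of the group, -1.44 ± 0.18 (edgeR adjusted p = 0.000256). It fell to 9.70, 8.40, 13.2 and 11.4 CPM in oxPAPC libraries, against 22.9, 30.3, 26.1 and 36.6 CPM in Control libraries. The gap between the groups was wide. Vegfa, which encodes the vascular endothelial growth factor and is a textbook HIF target, at chr17:46016993-46032369, fell to 15.8, 15.2, 15.6 and 14.8 CPM with oxPAPC, against 19.6, 24.1, 18.0 and 26.0 CPM in Control. The oxPAPC values were nearly alike and all below the Control values (log2 fold change -0.52 ± 0.15, edgeR adjusted p = 0.0342). The call was lost without oxPAPC replicates 1 (adjusted p = 0.0750), 2 (0.0691) or 4 (0.0920) and without Control replicates 2 (0.103) or 4 (0.115), and with scaling by library totals (-0.37, adjusted p = 0.235). Ero1l, the oxidase that drives disulfide formation in the endoplasmic reticulum, at chr14:45283087-45318771, had 61.0, 44.4, 56.0 and 45.6 CPM with oxPAPC and 34.5, 36.9, 26.6 and 32.8 CPM in Control. It did not overlap (log2 fold change 0.66 ± 0.15, edgeR adjusted p = 0.0115).

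Bnip3 encodes a mitochondrial protein that promotes the removal of mitochondria by autophagy. Bnip3 (chr7:138890836-138909519) had 10.3, 8.33, 8.12 and 11.4 CPM in oxPAPC libraries and 6.25, 4.00, 6.35 and 5.47 CPM in Control libraries, with no overlap. Its log2 fold change was 0.78 ± 0.20 (edgeR adjusted p = 0.0197), and the call was lost without oxPAPC replicate 1 (adjusted p = 0.0560), oxPAPC replicate 4 (0.0712) or Control replicate 2 (0.0641). Part of its exons, 22.2%, overlaps the antisense gene Gm45507. The related Bnip3l averaged 53.8 ± 7.48 CPM with oxPAPC and 59.1 ± 11.5 CPM in Control (SD, n = 4 each; edgeR adjusted p = 0.638). Higd1a, a small protein of the respiratory chain, averaged 28.8 ± 3.86 and 20.5 ± 4.53 CPM (0.0734). Part of its exons, 22.5%, overlaps the antisense gene Gm47112. The collagen hydroxylase P4ha1 and the histone demethylase Kdm3a, both known HIF targets, had log2 fold changes of 0.10 and 0.07. Ankrd37, also a HIF target, was low and scattered, with 3.51, 0.793, 1.32 and 3.75 CPM in oxPAPC libraries and 1.73, 1.28, 1.65 and 1.33 CPM in Control libraries (edgeR adjusted p = 0.359). Part of the Ankrd37 exons, 22.7%, overlaps Lrp2bp on the opposite strand, which had 355 counts over all libraries against 271 for Ankrd37.

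Isoforms were also set against each other within each library, where the ratio of 2 counts does not depend on the scaling between libraries. Of 11 such ratios, 9 had no overlap between the oxPAPC and Control libraries. Each of the 9 had an exact two-sided permutation p of 0.0286, the smallest that 4 against 4 libraries can give, or 0.0350 after Benjamini-Hochberg adjustment over the 11 ratios. The genes of the pairs were known to differ when the pairs were set, so these p-values describe the split and are no independent evidence of it. Counts of Ldhb per count of Ldha were 0.0234, 0.0270, 0.0219 and 0.0247 in oxPAPC libraries and 0.0684, 0.0652, 0.0750 and 0.0692 in Control libraries. That is a difference of -1.52 ± 0.08 in the log2 ratio (SE), tight within each group. The ratio of Hk2 to Hk1 was 0.905, 0.783, 0.695 and 0.748 with oxPAPC and 0.425, 0.347, 0.366 and 0.4 in Control, a difference of 1.02 ± 0.10 in log2. Here oxPAPC replicate 3, which was high in both genes, had the lowest of the 4 oxPAPC ratios.

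The largest difference in log2 ratio was that of Eno2 to Eno1, -1.86 ± 0.28, followed by Aldoc to Aldoa at -1.62 ± 0.32. The glucose carriers Slc2a3 to Slc2a1 differed by -1.24 ± 0.12, the phosphofructokinase subunits Pfkp to Pfkl by -1.20 ± 0.15, and the kinases Pdk2 to Pdk1 by -1.17 ± 0.16. In each of these the form whose ratio dropped is the less abundant per kilobase of annotated exons in Control, except Pfkp. The remaining shifts were -0.92 ± 0.16 for Bnip3l to Bnip3 and 0.60 ± 0.19 for Egln3 to Egln1. Overlap was seen for Slc16a3 to Slc16a1, at -0.09 ± 0.13 (exact permutation p = 0.571), and for Pfkfb4 to Pfkfb3, at -0.10 ± 0.17 (exact permutation p = 0.514). As shares per kilobase of annotated exons, Hk2 made up 52.7 ± 2.77% of Hk1 plus Hk2 with oxPAPC and 35.4 ± 2.08% in Control. By counts, Hk2 stayed below Hk1 in every library, at 0.347 to 0.9055 per count of Hk1. Its share therefore depends on the exon lengths used. On the same scale, Slc2a1 made up 90.9 ± 1.07% and 80.9 ± 1.40% of its pair, Ldhb 4.86 ± 0.413% and 12.8 ± 0.658%, Eno2 2.31 ± 0.74% and 7.65 ± 0.896%, and Aldoc 1.08 ± 0.395% and 3.17 ± 0.80%, with oxPAPC and in Control (SD, n = 4 each).

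**Figure D3:**
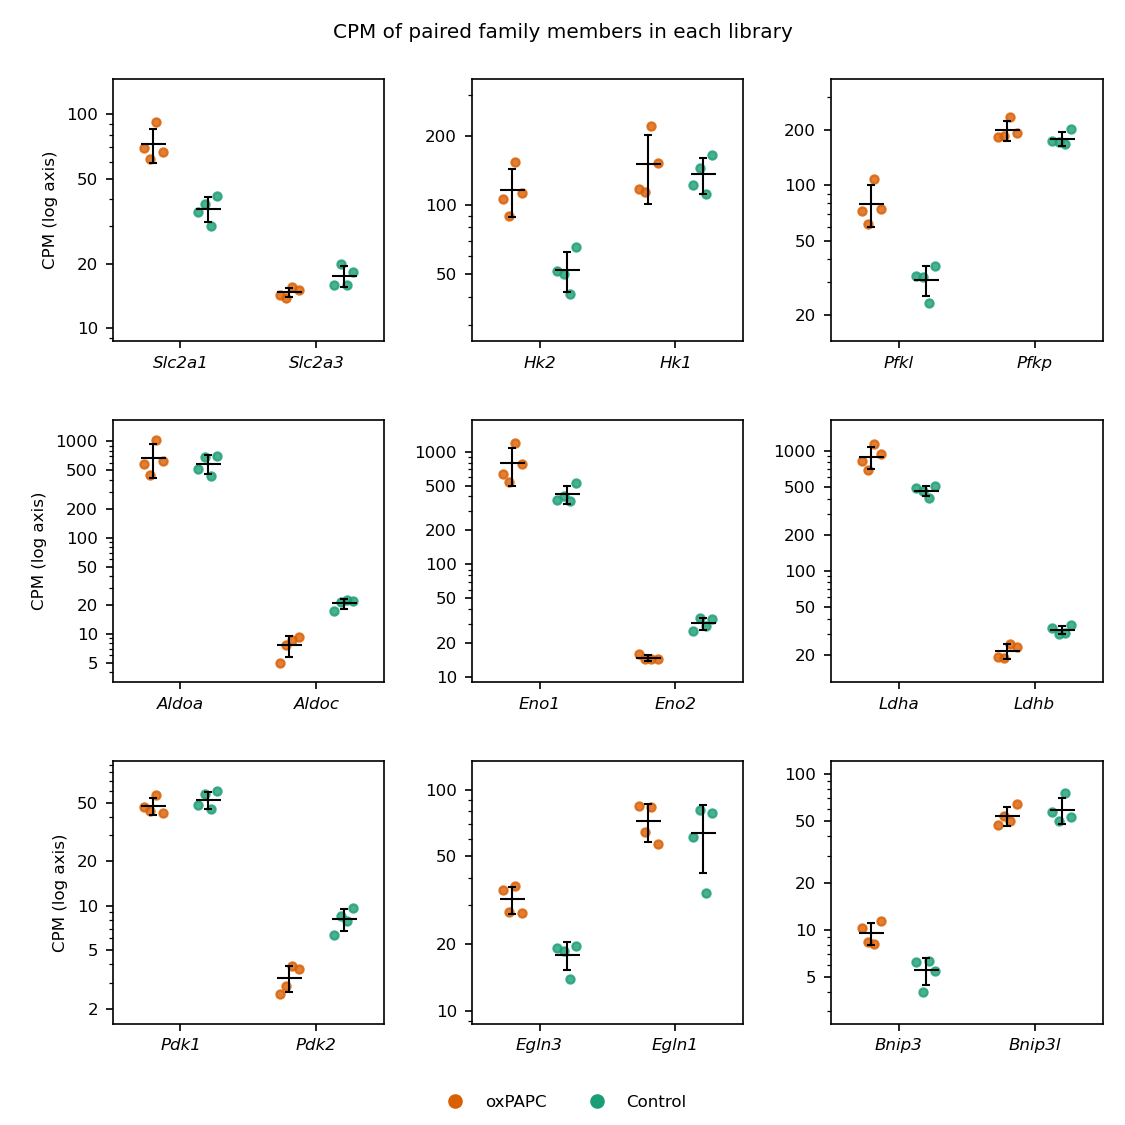
CPM (log axis) of 9 pairs of related genes in each library, with the oxPAPC points in orange left of the Control points in green and bars for the mean and SD of 4 libraries. Ldha, Eno1, Hk2 and Pfkl sit higher with oxPAPC while Ldhb, Eno2, Aldoc and Pdk2 sit lower, with no overlap between the groups in these 8 genes.

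**Figure D4:**
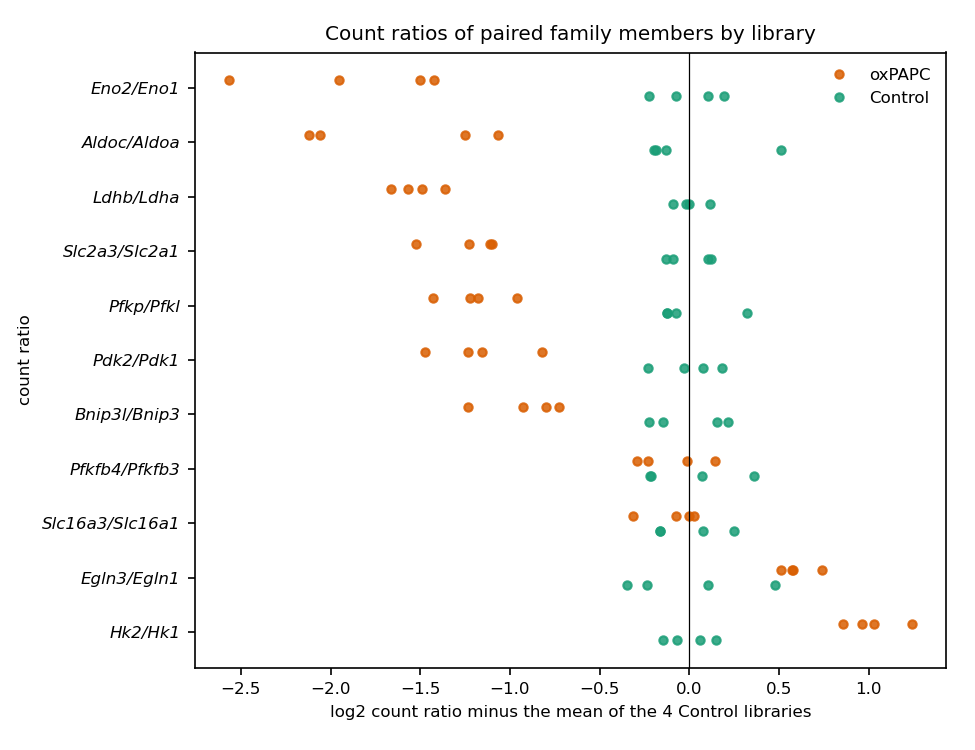
Log2 of the ratio of 2 counts within a library (x axis), less the mean of the 4 Control libraries, for the 11 ratios (y axis), with oxPAPC in orange and Control in green. In 9 ratios the 4 oxPAPC points are apart from the 4 Control points, from Eno2/Eno1 (-1.86) to Hk2/Hk1 (1.02), and in Slc16a3/Slc16a1 and Pfkfb4/Pfkfb3 they mix.

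The HIF core was looked for in the promoters of the 39 genes and in those of all genes tested. A window of 300 bases, 250 before and 50 after the start nearest to the annotated gene start, was found for 36 of the 39 genes; Slc2a3, Bnip3l and Ndrg1 had no entry, and Ero1l is listed as Ero1a. ACGTG or GCGTG on either strand occurred in 28 of 36 windows, or 77.8% (95% Wilson interval 61.9% to 88.3%), in 62.7% of the windows of all genes tested, which lies within that interval, and in 43.8% of all windows of the table. ACGTG alone occurred in 55.6% of the 36 windows (95% Wilson interval 39.6% to 70.5%). Of the windows of genes tested, 25.9% held it, below that interval, and of all windows 19.6%. The 39 genes include some chosen as known to respond to low oxygen. The palindrome CACGTG, which counts as ACGTG on both strands, occurred in 16.7% of the 36 windows (7.9% to 31.9%), 10% of those of genes tested and 7.2% of all. Among genes that rose, 10 of 11 windows held ACGTG or GCGTG (95% Wilson interval 62.3% to 98.4%). Among genes that fell, 3 of 5 did, or 60% (95% Wilson interval 23.1% to 88.2%). The 62.7% of all genes tested lies within both intervals. ACGTG alone occurred in 8 of 11 windows of genes that rose, or 72.7% (95% Wilson interval 43.4% to 90.3%). It occurred in 2 of 5 windows of genes that fell, or 40% (95% Wilson interval 11.8% to 76.9%). The 25.9% of genes tested lies below the first of these intervals and within the second, and the 2 intervals overlap.

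Other genes of the same pathways were read from the same fit, over lists of textbook members that leave out the 39. Of 86 tested, 9 were higher (10.5%) and 8 lower (9.3%), where all genes gave 6.69% and 6.5%, and the median log2 fold change was 0.00. The glycogen list had the largest share of genes lower, 3 of 8 tested, with 0 higher. Gyg, the primer protein of glycogen synthesis, averaged 51.8 ± 7.93 CPM with oxPAPC and 110.5 ± 15.6 CPM in Control (log2 fold change -1.09, edgeR adjusted p = 0.000578). Pygl, a glycogen phosphorylase, had 0.957 ± 0.258 and 3.87 ± 0.909 CPM (-1.997, 0.000588), and Ppp1r3b, a glycogen-targeting subunit of protein phosphatase 1, had 6.26 ± 1.38 and 10.02 ± 1.35 CPM (-0.67, 0.0382; SD, n = 4 each). The Ppp1r3b call was lost when any library other than oxPAPC replicate 3 was left out (edgeR adjusted p = 0.0526 to 0.104).

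Among 15 tested isoenzymes and side branches of glycolysis, 2 were higher and 1 lower. Tigar, a phosphatase that lowers fructose 2,6-bisphosphate and so diverts glucose from glycolysis, rose to 16.3, 13.6, 20.6 and 20.3 CPM in oxPAPC libraries, against 9.18, 6.19, 7.997 and 11.3 CPM in Control libraries. No values overlap (log2 fold change 1.02 ± 0.20, edgeR adjusted p = 0.00431). Gpd2, of the glycerol phosphate shuttle, had a log2 fold change of 0.47 (adjusted p = 0.0482), lost when any library other than oxPAPC replicate 2 was left out (0.0585 to 0.136). Pgm2l1, a phosphoglucomutase relative, fell by 0.67 on the log2 scale (edgeR adjusted p = 0.0157; lost without oxPAPC replicate 1, 0.0552, oxPAPC replicate 4, 0.0513, or Control replicate 2, 0.0502). Of 10 genes of the pentose phosphate pathway, Pgd rose by 0.73 (edgeR adjusted p = 0.0355) and Shpk fell by 0.99 (0.00664) on the log2 scale. The Pgd call was lost without oxPAPC replicates 3 or 4 or Control replicates 1, 2 or 3 (0.0699 to 0.0972). Of 13 genes for the entry of pyruvate into mitochondria, 0 were higher and Pdha1, a pyruvate dehydrogenase subunit, was lower, at 108 ± 26.5 CPM with oxPAPC and 164 ± 19.2 CPM in Control (SD, n = 4 each; edgeR adjusted p = 0.0417). This call was lost when any library other than oxPAPC replicate 3 or Control replicate 3 was left out (edgeR adjusted p = 0.0675 to 0.132).

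Of 40 further genes of the hypoxia and HIF pathway, 6 were higher and 2 lower. Tfrc, the transferrin receptor and a known HIF target, rose to 209, 139.5, 215 and 200.2 CPM in oxPAPC libraries, against 78.3, 48.1, 75.8 and 70.2 CPM in Control libraries. These are far apart, with a log2 fold change of 1.49 ± 0.19 (edgeR adjusted p = 0.000262). Ier3, a stress-induced survival gene, rose by 1.01 ± 0.17 (0.00181) and Ak4, a mitochondrial adenylate kinase induced by hypoxia, by 1.94 ± 0.41 (0.00648), at 1.90 ± 0.968 CPM with oxPAPC and 0.484 ± 0.128 CPM in Control (SD, n = 4 each). Epas1, which encodes HIF-2 alpha, the relative of Hif1a, fell by 1.77 ± 0.37 on the log2 scale (edgeR adjusted p = 0.00627), from low levels of 0.914 ± 0.483 CPM with oxPAPC and 3.26 ± 1.14 CPM in Control (SD, n = 4 each). The other calls were Elob, Adm and Plod2, higher, and Car9, lower. Car9 (-0.88, edgeR adjusted p = 0.0420) was lost whichever library was left out (0.0522 to 0.134). Elob was lost without oxPAPC replicate 4 (0.0509) or Control replicate 2 (0.0517), and Plod2 without oxPAPC replicate 3 (0.0566), oxPAPC replicate 4 (0.0728) or Control replicate 1 (0.0769).

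The authors' deposited table, made from the same counts with DESeq2, calls 19 of the 40 rows at an adjusted p under 0.05, 12 higher and 7 lower. In the authors' deposited table the 17 rows called here are among them with the same direction, and the 2 further calls are Pfkfb4 (adjusted p = 0.0465) and Higd1a (0.0461). The authors' deposited table gives no adjusted p for 3 rows, Hk1, Gpi1 and the abundant Aldoa row.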

How the data were processed

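RNA-seq of 8 libraries was analysed, grouped by their labels. RNA was poly(A)-selected, per the labels' protocols. DESeq2 1.30.1, featureCounts 2.0.2 and STAR 2.7.8a are the tools, and GRCm38.p6 the build, of the submitters' processing notes. The authors deposited whole-number counts per gene, not normalized, beside their own comparison (mean normalized signal, log2 fold change with its standard error, linear fold ratio, test score and p-values), per the file headers. The strand setting of the counting was not given in the sources used here. Every row has 5 or more counts in 2 or more libraries, and genes under that were not analysed here.

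Counts were scaled by TMM and filtered with filterByExpr, and the groups compared with edgeR 4.0.16 (robust quasi-likelihood test, R 4.3.3) over 16434 genes. P-values were adjusted by Benjamini-Hochberg with a threshold of 0.05. CPM are counts scaled to a common size of the TMM-adjusted libraries, and an SE is the size of a log2 fold change over the root of its F statistic. The common biological coefficient of variation was 0.207. Exon lengths and gene positions came from GENCODE M21, promoters from RefSeq. Log2 count ratios used a pseudocount of 0.5. The fit was tested on simulated data.

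The members, lists, ratios and tests were chosen with earlier results of these data known. By rule, values per library are given for members past the threshold and for a preset group, and up to 4 called genes of each other list are named; Elob, Adm, Plod2 and Car9 were named after their values were seen. Alternatives were RLE and library size scaling, 2 filters, DESeq2 1.42.0, voom with quality weights (limma 3.58.1), the replicate number as a block and leaving out each library. A further fit with a GC and length offset was added after the data were seen.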

Additional observations from a re-analysis of the deposited data

Results flagged for a closer look

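Among 102 sets of 4 values (CPM or count ratios of a group), 5 held a library far from the other 3 by Dixon's test, about the 5 that chance gives. Eno2 was at 16.1 CPM in oxPAPC replicate 1, against 14.4 to 14.5 CPM in the other oxPAPC libraries. Pfkp was at 203 CPM in Control replicate 4, against 168 to 173.5 CPM in the other Control libraries. Egln3 was at 13.98 CPM in Control replicate 3, against 18.6 to 19.6 CPM in the others. In the same library the count ratio of Pfkp to Pfkl was 7.28, against 5.35 to 5.55, and that of Aldoc to Aldoa was 0.0513, against 0.0315 to 0.0329.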

How the results depend on the processing

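Of the 17 called members, 11 kept their direction and their side of the threshold in each of the 16 fits that changed a single choice (Slc2a1, Hk2, Pfkl, Aldoc, Tpi1, Eno2, Ldha, Pdk2, Egln3, Ndrg1 and Ero1l), and 0 of the 17 changed direction. The count of members called higher ran from 8 to 12. The count called lower, 6, was 11 with voom and quality weights and 10 with the GC and length offset, and ran from 4 to 9 when a library was left out. Over all genes tested, the 1100 called higher were 1764 with that offset and 701 to 1056 when a library was left out, and the 1069 called lower were 460 with scaling by library totals and 681 to 1173 when a library was left out. With scaling by totals, the median log2 change was 0.12 over all genes and 0.30 over the members, against -0.01 and 0.16 with TMM. It called 71.7% of its calls higher over all genes, against 50.7% with TMM, and 71.4% against 64.7% among the members. Directions and calls were read against 0 and not against that median. Read so, no called member changed direction, but 3 were no longer called. They were Hif1a, whose log2 fold change was larger at 0.65 (edgeR adjusted p = 0.0686), Ldhb at -0.45 (0.170) and Vegfa at -0.37 (0.235). Among the other pathway genes, the 9 called higher were 14 with the offset and 5 to 12 when a library was left out, the lowest without oxPAPC replicate 4. The 8 called lower were 4 with scaling by totals and 4 to 8 when a library was left out. With the core motif read as ACGTG alone, 55.6% of the members' promoters held it, against 25.9% of those of genes tested. Read as ACGTG or GCGTG, the shares were 77.8% and 62.7%. For none of these was the cause tested.

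The replicate numbers do not pair the libraries by any label, and the deviations of same-numbered libraries correlated at 0.38, -0.05, -0.38 and -0.06, with 2 of 8 libraries closest to their own number. With the number as a replicate block, 701 genes were called higher and 665 lower, and 9 members higher and 5 lower, without Eno1 (log2 fold change 0.85, adjusted p = 0.0675), Pgam1 (0.74, 0.0668) and Vegfa (-0.50, 0.0911), whose estimates stayed close to 0.91, 0.77 and -0.52 without the block. The 9 count ratios whose groups did not overlap had all 4 differences between same-numbered libraries in 1 direction. They also did not overlap when any library was left out. Both must follow once the groups do not overlap, so they are no further check of these ratios. The smallest exact sign-flip p is 0.125, and the exact permutation test of 4 against 3 libraries gives at least 0.0571.

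Estimates that changed sign all belong to members not called. With voom and quality weights the log2 fold changes were -0.04 for Hk1, -0.027 for the abundant Aldoa row and -0.034 for the other Aldoa row. Leaving out a library gave ranges of -0.089 to 0.268 for Hk1, -0.087 to 0.355 for the abundant and -0.21 to 0.23 for the other Aldoa row, -0.02 to 0.19 for Slc16a3, -0.028 to 0.316 for Egln1 and -0.23 to 0.005 for Bnip3l, and of -0.179 to 0.023 for the log2 ratio of Pfkfb4 to Pfkfb3. Low values were found for Ankrd37, at 2.34 and 1.498 CPM in oxPAPC and Control libraries, and for the second Aldoa row, at 1.38 and 1.33 CPM. The part of depth in their spread was not tested.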
